A study of Homo sapiens with 8 samples.

Results

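Replication-dependent histone genes encode the bulk histones that package newly made DNA. They were taken here as the genes whose symbol is H1-1 to H1-5, or H2AC, H2BC, H3C or H4C followed by a number, and that had a probe set of their own on the array. This rule found 60 of the 18231 genes with such a probe set, and each gene was read from its probe set of highest mean across the 8 arrays. They comprised 5 linker histone H1 genes, 15 H2A genes, 18 H2B genes, 10 H3 genes and 12 H4 genes. By their older names, 53 lie in the HIST1 locus, 4 in HIST2, 2 in HIST3 and 1, H4C16, in HIST4.

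RNA came from JVM13, a human B-cell line established from prolymphocytic leukaemia, and was hybridised as biotinylated cRNA to an Affymetrix expression array. The cells carried an inducible vector with T286A cyclin D1 (n = 3 arrays), with wild-type cyclin D1 (n = 3) or lacking any insert (empty vector, titled control, n = 2). T286A is a highly stable form of cyclin D1 that cannot be phosphorylated at the residue which marks the protein for export from the nucleus and breakdown. Every culture, empty vector included, was given 0.1 µg/mL doxycycline, the inducer, and was grown in RPMI medium with serum. The labels do not state how many independently made populations stand behind a construct, how long induction lasted or whether replicates were separate cultures, so p-values measure only how these samples scatter, and that scatter may be technical.

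Histone octamers are built from H2A-H2B dimers and an H3-H4 tetramer, and linker histone H1 binds the DNA between them. Transcription of the replication-dependent genes is switched on at entry into S phase by NPAT at histone locus bodies, and their mRNAs end in a stem-loop bound by SLBP in place of a poly(A) tail. Cyclin D1, with its kinases CDK4 and CDK6, phosphorylates the retinoblastoma protein and so releases E2F factors at the G1 to S transition. How far the labelling protocol copied transcripts without a poly(A) tail is not stated in the labels, and probes can also read histone transcripts that carry one.

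Values are log2 expression values from robust multi-array averaging (RMA), which gives every array the same overall distribution, so each difference is relative to the other genes. CCND1, the gene induced, was at 11.25, 10.86 and 10.95 in T286A cells and 10.98, 11.13 and 11.07 in wild-type cyclin D1 cells, against 5.25 and 4.98 in empty vector cells. That is 59.8-fold higher with T286A and 61.6-fold higher with wild type. T286A differed from wild type by -0.04 (95% confidence interval -0.31 to 0.22). Arrays correlated at 0.994 to 0.998 over all genes. Wild-type replicate 2 stood somewhat apart, with an array weight in limma of 0.513 against 0.85 to 1.44 for the other 7. The 5 B-cell markers measured lay between 7.63 and 13.4 on every array and the 5 T-cell markers between 3.99 and 5.22, at the level of dim genes. Of 4 myeloid markers, ITGAM was highest, at 7.06 to 7.88. None of these markers was called in any of the 4 comparisons except CD22, a B-cell receptor, which was lower with wild type than with empty vector (limma adjusted p = 0.0498), and 0 of 14 housekeeping genes were called.

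Many histone genes differ from each other by few bases, and the array design marks this in the probe set names. Of the 60 probe sets used, 25 were designed to a single transcript, 2 to transcripts of the same gene, 19 hold probes shared by several transcripts and 14 hold some probes that may bind unrelated transcripts. A value of the last 2 kinds can therefore include RNA of a relative. Of the 60 genes, 30 had more than 1 probe set, and all probe sets of a gene had the same sign of difference in 21 of them for T286A, 23 for wild type and 21 for both constructs against empty vector, and in 15 for T286A against wild type. Another 8 histone probe sets were annotated to several genes at once and lie outside the rule. By level, 24 genes were no dimmer than the overall gene median (5.94) and 36 lay below it. The values carry no detection call.

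**Figure D1:**
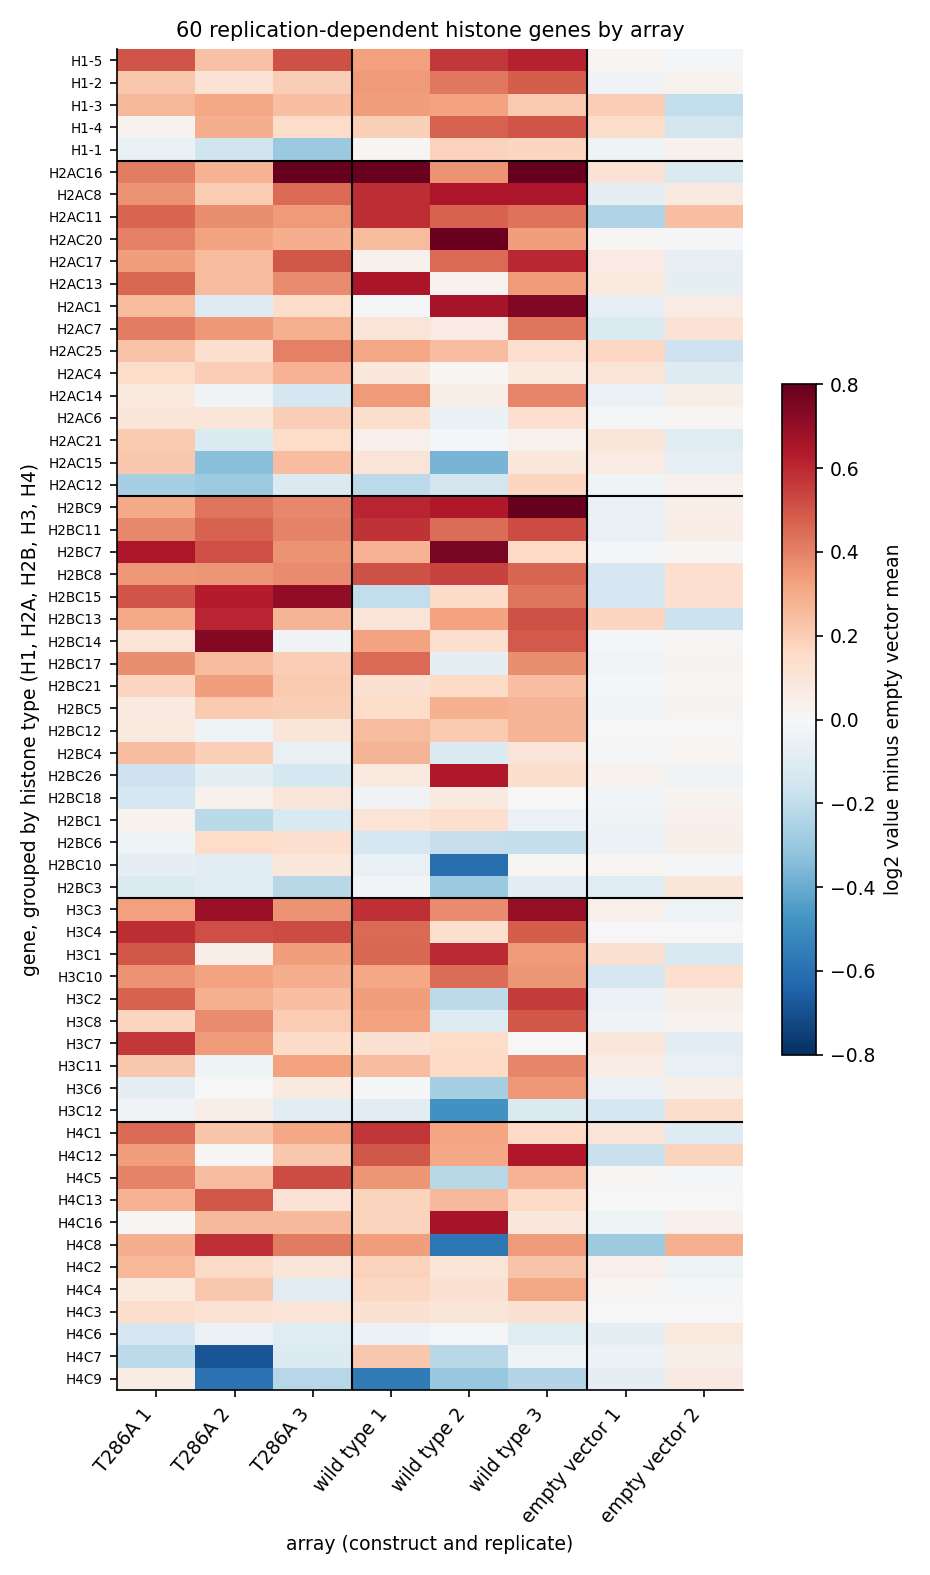
Value of each of the 60 genes (rows, grouped by histone type) on each array (columns: T286A, wild-type cyclin D1, empty vector), as the log2 value minus the mean of the empty vector arrays. Colours end at 0.8 in either direction. Most rows are red in the T286A and wild-type columns, and between 39 and 47 genes per array exceeded both empty vector arrays.

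With either form of cyclin D1, histone transcripts were on balance higher than with empty vector, by small amounts. Both constructs together were tested against empty vector in limma with Benjamini-Hochberg adjustment over all 18231 genes, and 4 of the 60 genes rose and 0 fell at an adjusted p under 0.05. Of all genes, 1.4% were called by the same rule, 0.702% higher and 0.697% lower. The 4 were H2BC9, H2AC8, H2BC11 and H2BC8, which encode core histones H2B and H2A. With p unadjusted, 28 were higher and 0 lower at 0.05, against 5.72% and 6.74% of all genes. The difference was positive in 49 of the 60 genes, compared with 49.9% of all genes, and its median was 0.24 on the log2 scale, compared with -0.00015 over all genes. In 20 genes all 6 cyclin D1 arrays lay above both empty vector arrays, a separation met by 6.68% of all genes, and in 0 genes did all 6 lie below, compared with 6.88% of all genes. In RNA from a whole culture, more cells with a transcript and more transcript per cell cannot be told apart.

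H2BC9 (older name HIST1H2BH) was at 8.96, 9.08 and 9.04 in T286A cells and 9.26, 9.29 and 9.54 in wild-type cyclin D1 cells, against 8.60 and 8.71 in empty vector cells. The wild-type arrays were highest, the empty vector arrays lowest, and the 3 groups did not overlap. Both constructs together exceeded empty vector by 0.54 ± 0.088 (log2 ± SE, 1.46-fold, limma adjusted p = 0.0299). H2BC9 had 3 probe sets, and all 3 rose when tested over the 46545 annotated probe sets, by 0.54 to 0.65. The one used and another hold some probes that may bind unrelated transcripts, and the remaining one was designed to transcripts of the same gene.

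H2AC8 (HIST1H2AE), read by a probe set designed to a single transcript, was at 8.98, 8.83 and 9.07 in T286A cells and 9.21, 9.27 and 9.27 in wild-type cells, against 8.55 and 8.70 in empty vector cells. Again the 3 groups did not overlap and wild type was highest. The difference for both constructs was 0.48 ± 0.079 (1.40-fold, limma adjusted p = 0.0318). Its other probe set gave 0.48 ± 0.11 and was not called over all probe sets (limma adjusted p = 0.121), where the probe set used had an adjusted p of 0.0517.

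H2BC11 (HIST1H2BJ) was at 8.82, 8.90 and 8.83 in T286A cells and 9.01, 8.88 and 8.95 in wild-type cells, against 8.37 and 8.50 in empty vector cells. Here the construct groups overlapped each other and both lay above empty vector. The difference was 0.47 ± 0.067 (1.38-fold, limma adjusted p = 0.0214), with 0.43 and 0.45 in its other probe sets, which were not called. The probe set used holds probes shared by several transcripts, and the one that gave 0.43 was designed to a single transcript.

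H2BC8 (HIST1H2BG) was at 7.89, 7.89 and 7.92 in T286A cells and 8.05, 8.08 and 8.01 in wild-type cells, against 7.41 and 7.67 in empty vector cells. The empty vector arrays were lowest and spread more widely than either construct group. Its difference was 0.43 ± 0.077 (1.35-fold, limma adjusted p = 0.0392). Its other probe set gave 0.20 and was not called, and over all probe sets the one used had a limma adjusted p of 0.0655. The one used holds probes shared by several transcripts, and the other holds some that may bind unrelated transcripts. Neither was designed to H2BC8 alone.

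Among genes that missed the threshold, the H3 gene H3C4 was at 8.27, 8.20 and 8.20 in T286A cells and 8.14, 7.81 and 8.17 in wild-type cells, against 7.68 and 7.68 in empty vector cells. Every construct array lay above the controls, and the difference was 0.45 ± 0.096 (limma adjusted p = 0.0716). H3C3, another H3 gene, differed by 0.51 ± 0.12 (limma adjusted p = 0.091), and the linker histone gene H1-5 by 0.46 ± 0.10 (limma adjusted p = 0.081). The largest positive value, 0.62 ± 0.20, belonged to the dim H2A gene H2AC16 (limma adjusted p = 0.228), and the most negative, -0.31, to the dim H4 gene H4C9 (limma adjusted p = 0.489). The 2 probe sets of H4C9 had opposite signs: the one used holds probes that may bind unrelated transcripts, and the other, designed to a single transcript and about as dim, gave 0.48 (limma adjusted p = 0.365 over all probe sets).

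The calls changed with the array that was left out. Leaving out an array changed the 4 calls to 2 without wild-type replicate 1, 3 without wild-type replicate 2 and 2 without wild-type replicate 3. Calls over all genes fell there from 255 to 120, 199 and 154. The histone count was 0 without T286A replicate 1, 1 without T286A replicate 2 and 0 without T286A replicate 3. Over all genes 88, 78 and 65 were then called. Leaving out either empty vector array leaves only 1 control, so its calls are not counted here. The median difference stayed between 0.21 and 0.25 in all 8 of these fits.

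**Figure D2:**
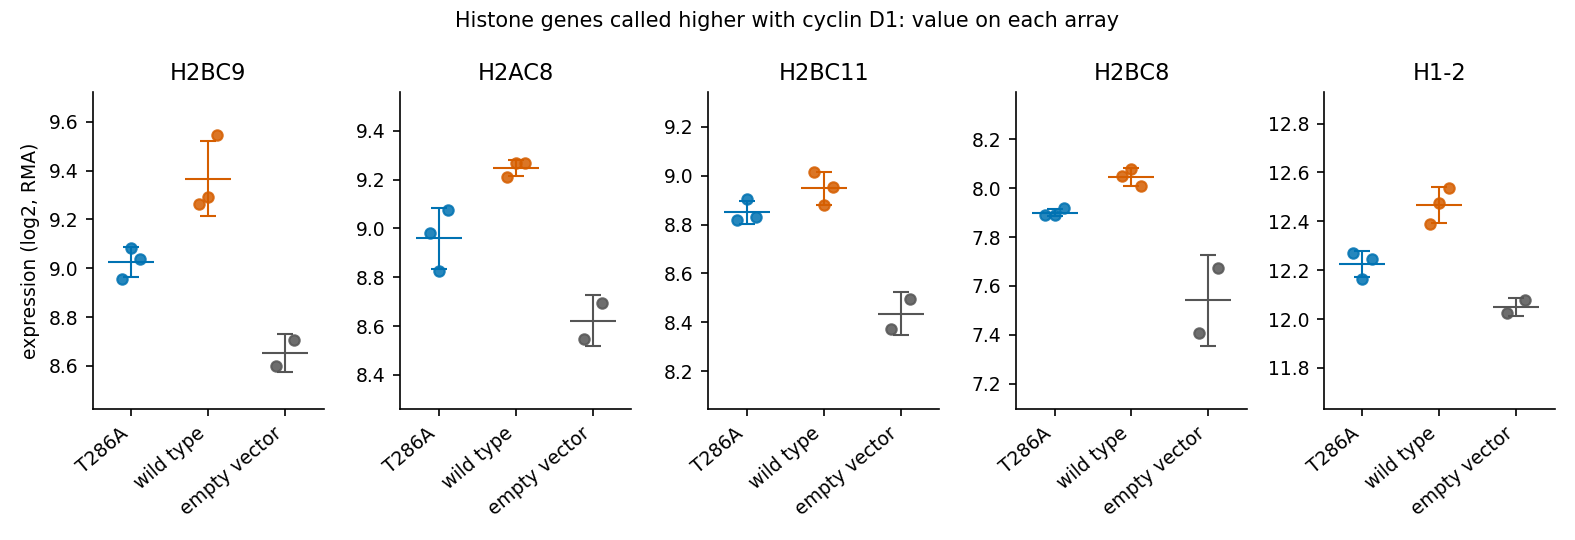
Expression (log2, RMA) of the 5 histone genes called in at least 1 comparison, on every T286A, wild-type cyclin D1 and empty vector array. Points are arrays, horizontal marks are group means and error bars are SD; all panels span the same log2 range, and in each of them the empty vector arrays are the lowest.

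The upstream sequences of 4 called genes are shown because they hold the promoter elements by which histone types are usually told apart. They are the 250 bases before the RefSeq transcription start (GRCh38.p14), 5′ to 3′ on the gene's strand, with matches on either strand in capitals. The letters searched were ATTTGCAT (the octamer, bound by POU2F1), CCAAT (bound by NF-Y in many promoters), TATAAA, TTTCGCGC or TTTGGCGC (E2F-type sites) and AAACACA (the H1 box of linker histone genes).
H2AC8 promoter, chr6:26216671-26216920, plus strand: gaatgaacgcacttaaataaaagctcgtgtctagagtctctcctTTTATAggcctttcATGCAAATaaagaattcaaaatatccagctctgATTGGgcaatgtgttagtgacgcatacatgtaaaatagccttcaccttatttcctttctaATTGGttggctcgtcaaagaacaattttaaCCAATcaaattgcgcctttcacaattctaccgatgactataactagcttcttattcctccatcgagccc
H2BC11 promoter, chr6:27132796-27133045, minus strand: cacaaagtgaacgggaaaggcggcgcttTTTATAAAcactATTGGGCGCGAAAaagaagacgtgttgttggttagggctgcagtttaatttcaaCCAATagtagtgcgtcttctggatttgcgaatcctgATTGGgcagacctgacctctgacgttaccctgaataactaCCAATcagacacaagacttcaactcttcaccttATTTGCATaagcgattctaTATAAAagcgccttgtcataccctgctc
H2BC9 promoter, chr6:26251364-26251613, plus strand: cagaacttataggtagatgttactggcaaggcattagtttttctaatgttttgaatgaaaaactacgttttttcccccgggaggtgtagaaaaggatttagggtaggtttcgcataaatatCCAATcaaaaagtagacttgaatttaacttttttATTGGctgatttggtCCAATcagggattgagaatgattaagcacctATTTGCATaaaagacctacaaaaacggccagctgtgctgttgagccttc
H1-2 promoter, chr6:26056471-26056720, minus strand: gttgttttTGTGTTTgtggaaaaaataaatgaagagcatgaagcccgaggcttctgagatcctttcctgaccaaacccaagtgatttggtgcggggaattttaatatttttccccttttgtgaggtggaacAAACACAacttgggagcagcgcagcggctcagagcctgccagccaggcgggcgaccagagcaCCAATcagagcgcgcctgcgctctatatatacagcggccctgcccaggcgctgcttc

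In H2BC9 and H2BC11 the octamer lies from base -49 to -42 and from -47 to -40 before the start. The H2AC8 window covers the whole stretch of 233 bases between its start and that of H2BC8, which is read in the opposite direction, and its octamer at -192 to -185 lies near the H2BC8 end. H2BC11 carries 4 CCAAT boxes, one of which adjoins an E2F-type site without overlap, and 2 of its 3 TATA matches overlap each other. H1-2 has 2 H1 boxes and 1 CCAAT box, and no octamer match in this window.

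Of the 60 genes, 55 had an entry in the promoter table. The octamer was found in 26 of the 55 (47.3%), compared with 1.66% of 27305 promoters of the same length. It occurred in 11 of 14 H2A genes and 14 of 18 H2B genes, in 1 of 8 H3 genes and in 0 of 5 H1 and 0 of 10 H4 genes. That H3 gene is H3C4, whose RefSeq start and window are the same as those of H2AC7, so this promoter counts under both types. H2A and H2B genes read in opposite directions from nearby starts have overlapping windows. The same match can therefore count under both genes of such a pair. The CCAAT box was present in every H1, H2A, H2B and H3 promoter of the table and in 3 of 10 H4 promoters (87.3% of the 55, compared with 33.0% of all promoters). TATAAA was found in 65.5%, compared with 11.1%, and an E2F-type site in 11 of the 55, compared with 0.996%. The H1 box was found in 5 of 5 H1 promoters and in 0 of the H2A, H2B, H3 and H4 promoters, compared with 4.95% of all promoters. Among H2A and H2B genes, the median difference for both constructs was 0.35 in the 10 with an E2F-type site and 0.16 in the 22 without. Most of these 10 belong to pairs with overlapping windows, so they hold fewer separate sites than genes. All 10 lie in HIST1 from H2BC11 to H2BC17, so the site cannot be told apart from place in the locus. With and without an octamer it was 0.26 (25 genes) and 0.24 (7 genes). These medians are descriptions of few genes, and a match is not evidence of binding.

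Each construct was also compared by itself with empty vector, and these comparisons rest on the same 2 control arrays. T286A cyclin D1 against empty vector gave 0 calls among the 60 genes in limma, where 0.532% of all genes were called, 0.34% higher and 0.192% lower. With p unadjusted, 23 were higher and 0 lower at 0.05, compared with 5.95% and 6.15% of all genes. The smallest adjusted p was 0.0587, for H2BC11 (0.42 ± 0.075, 1.33-fold, higher in 3 of 3 arrays than in both controls). H3C4 followed with 0.54 ± 0.11 (1.46-fold, limma adjusted p = 0.0758). The difference was positive in 48 of the 60 genes (49.1% of all genes) and the median was 0.22 (all genes -0.003). All 3 arrays lay above both controls in 33 genes and below in 4, where 15.2% and 16.7% of all genes did so. At the same threshold, other ways of fitting called between 0 and 6 of the 60. The highest count, 6, came from limma's trended and robust variance model and covered H1-2, H2AC8, H2BC11, H2BC9, H3C4 and H4C3. Of all genes, that model called 626 for T286A, in place of 97. Without wild-type replicate 2, which enters through the shared spread, H3C4 was called.

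Set against empty vector, wild-type cyclin D1 gave 5 genes that rose and 0 that fell, where 1.74% of all genes were called, 0.603% higher and 1.14% lower. Unadjusted, 21 had a p under 0.05 and were higher, and 0 were lower (6.08% and 7.42% of all genes). H2BC9 rose by 0.71 ± 0.098 (1.64-fold, limma adjusted p = 0.0139), H2AC8 by 0.63 ± 0.089 (1.54-fold, 0.015), H2BC11 by 0.51 ± 0.075 (1.43-fold, 0.0163) and H2BC8 by 0.51 ± 0.086 (1.42-fold, 0.028). The fifth gene, H1-2, encodes a linker histone. It was at 12.27, 12.16 and 12.24 in T286A cells and 12.39, 12.47 and 12.54 in wild-type cells, against 12.02 and 12.08 in empty vector cells, and the 3 groups did not overlap. Wild type exceeded empty vector by 0.42 ± 0.073 (1.33-fold, limma adjusted p = 0.0322, and 0.0606 over all probe sets, where it was not called) and T286A did by 0.18 ± 0.073 (1.13-fold, limma adjusted p = 0.387). Its only probe set holds probes that may bind other transcripts.

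Across all 60 genes, wild type was higher than empty vector in 51 (50.5% of all genes) with a median of 0.24 (all genes 0.0016). All 3 arrays lay above both controls in 30 genes and below in 2, where 15.2% and 15.3% of all genes did so. The 2 below were H2BC6 and H4C9, both dim. In the single-transcript probe set of H4C9 the wild-type arrays, at 4.89, 4.54 and 4.63, lay instead above the controls, at 4.30 and 4.51. Leaving out an array changed the 5 calls to 2 without wild-type replicate 1 or 3, and to 3 without T286A replicate 1, 2 or 3. The count was 4 without wild-type replicate 2. These fits called 153 to 196 of all genes, in place of 317. Leaving out an empty vector array leaves 1 control, so its calls are not counted here. With the probe sets designed to 1 gene, an alternative chosen after seeing the data, the count was 3 of the 46 genes that have one (H2AC8, H2BC9 and H3C8).

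By level, the 24 genes whose mean over the 8 arrays was no dimmer than the overall median had a positive difference with each construct, where 47.6% of all genes at that level did with T286A and 47.6% with wild type. Their medians were 0.31 for T286A and 0.36 for wild type. One of them, H2AC13, reached that level only through the construct arrays (means 6.28 with T286A and 6.26 with wild type, against 5.92 with empty vector). Among the 36 dimmer genes 24 were positive with T286A and 27 with wild type, with medians of 0.13 and 0.17. All 5 called genes were among the 24, and over all genes 91% of the calls for both constructs and 86.1% of those for wild type were at that level too. H4C3, a histone H4 gene, was at 14.14, 14.12 and 14.10 in T286A cells and 14.12, 14.09 and 14.12 in wild-type cells, against 14.00 and 14.00 in empty vector cells. Both construct groups lay above the controls by about the same small amount, 0.12 and 0.11, and neither was called. H2BC12, an H2B gene, was at 13.26, 13.14 and 13.27 in T286A cells and 13.43, 13.38 and 13.45 in wild-type cells, against 13.17 and 13.18 in empty vector cells. There wild type lay above the other arrays, while T286A overlapped the controls. The difference was 0.05 for T286A and 0.24 for wild type, not called in either.

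**Figure D3:**
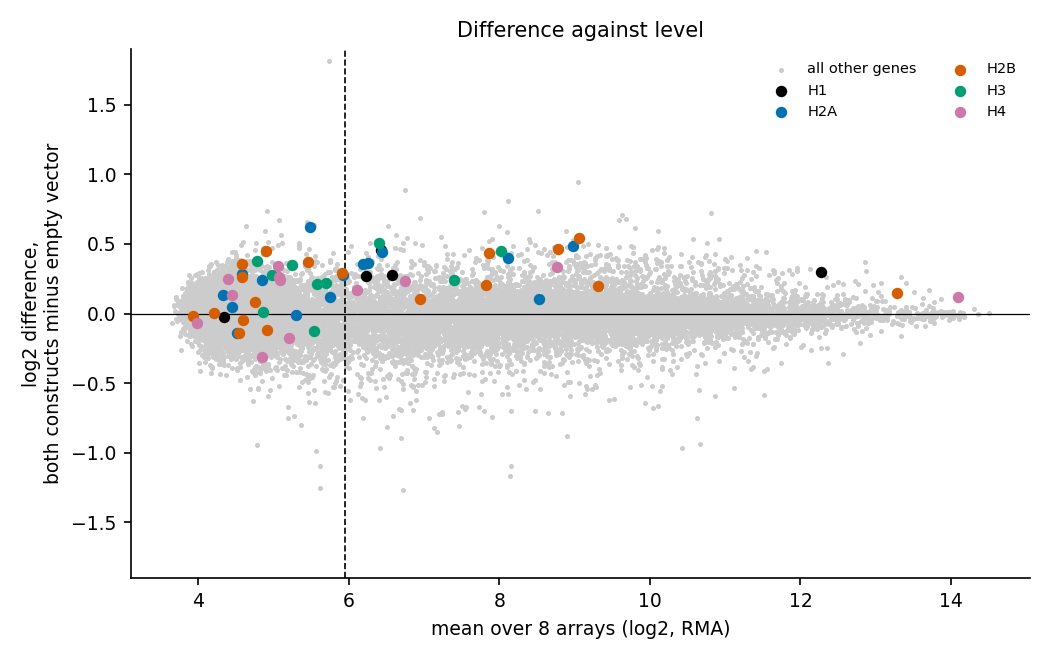
Log2 difference of both constructs minus empty vector against the mean over all 8 arrays, for the 60 histone genes (coloured by type) and all other genes (grey; CCND1 lies outside the axis and is left out). The dashed line is the median of all genes, 5.94; every histone gene to its right lies above 0.

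Every histone type had a median difference above 0 with each construct. With T286A the medians were 0.18 for H1, 0.26 for H2A, 0.20 for H2B, 0.31 for H3 and 0.17 for H4. With wild type they were 0.39, 0.26, 0.24, 0.25 and 0.15 in the same order. H1 thus had the highest of the 5 medians with wild type and H3 with T286A, although the ranges of the types overlapped. For both constructs together, 4 of 5 H1 genes, 7 of 15 H2A genes, 9 of 18 H2B genes, 4 of 10 H3 genes and 4 of 12 H4 genes were higher at an unadjusted p under 0.05. Of all genes, 5.72% were. The adjusted calls were 1 H2A gene and 3 H2B genes.

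Among linker histones, H1-5 was at 6.58, 6.32 and 6.59 in T286A cells and 6.41, 6.65 and 6.70 in wild-type cells, against 6.10 and 6.07 in empty vector cells. Both construct groups lay above the controls and overlapped each other. H1-3 was at 6.63, 6.67 and 6.60 in T286A cells and 6.70, 6.68 and 6.57 in wild-type cells, against 6.56 and 6.16 in empty vector cells. All construct arrays of H1-3 were above the higher control by a small margin, with a difference of 0.28 for both constructs (limma adjusted p = 0.284). H1-1, the only H1 gene below the median of all genes (mean 4.34), had -0.17 with T286A and 0.12 with wild type.

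In H2A, H2AC20 of the HIST2 locus was at 8.22, 8.14 and 8.10 in T286A cells and 8.07, 8.60 and 8.15 in wild-type cells, against 7.82 and 7.81 in empty vector cells. Construct arrays were all higher, and wild-type replicate 2 was the highest. The difference was 0.40 for both constructs (limma adjusted p = 0.231). H2AC6 was at 8.55, 8.55 and 8.64 in T286A cells and 8.59, 8.40 and 8.58 in wild-type cells, against 8.44 and 8.46 in empty vector cells. All 3 T286A arrays of H2AC6 lay above both controls, while wild-type replicate 2 lay below them, so wild type overlapped the controls. H2BC5, an H2B gene of the HIST1 locus, was at 9.24, 9.38 and 9.36 in T286A cells and 9.31, 9.45 and 9.44 in wild-type cells, against 9.15 and 9.19 in empty vector cells. All 6 construct arrays of H2BC5 were higher, by a mean of 0.20 (limma adjusted p = 0.272). Its 3 probe sets disagreed, since another gave 0.21 and the one designed to a single transcript gave -0.05, with 5 of the 6 construct arrays below both controls. The RefSeq gene table lists 6 older H2B names for H2BC5, and which RNAs its probes read was not tested.

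In H3, H3C3 was at 6.35, 6.71 and 6.38 in T286A cells and 6.61, 6.40 and 6.72 in wild-type cells, against 6.06 and 5.98 in empty vector cells. H3C8 was at 7.38, 7.59 and 7.42 in T286A cells and 7.53, 7.11 and 7.71 in wild-type cells, against 7.18 and 7.24 in empty vector cells. H3C3 separated from the controls on every array, and H3C8 did so except on wild-type replicate 2. The 4 probe sets of H3C8 disagreed: for both constructs the one used gave 0.24, and one designed to a single transcript, tested over all probe sets, rose by 0.84 ± 0.13 (limma adjusted p = 0.0402). The other 2 gave 0.46 and -0.02 and were not called. In H4, H4C12 was at 8.86, 8.53 and 8.73 in T286A cells and 9.02, 8.83 and 9.16 in wild-type cells, against 8.34 and 8.70 in empty vector cells. H4C8 was at 6.86, 7.15 and 6.99 in T286A cells and 6.90, 5.99 and 6.91 in wild-type cells, against 6.28 and 6.85 in empty vector cells. The 2 controls of H4C8 lay far apart and wild-type replicate 2 lay below both, and its difference of 0.43 for T286A was not called (limma adjusted p = 0.621), nor in any fit that left out 1 array.

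**Figure D4:**
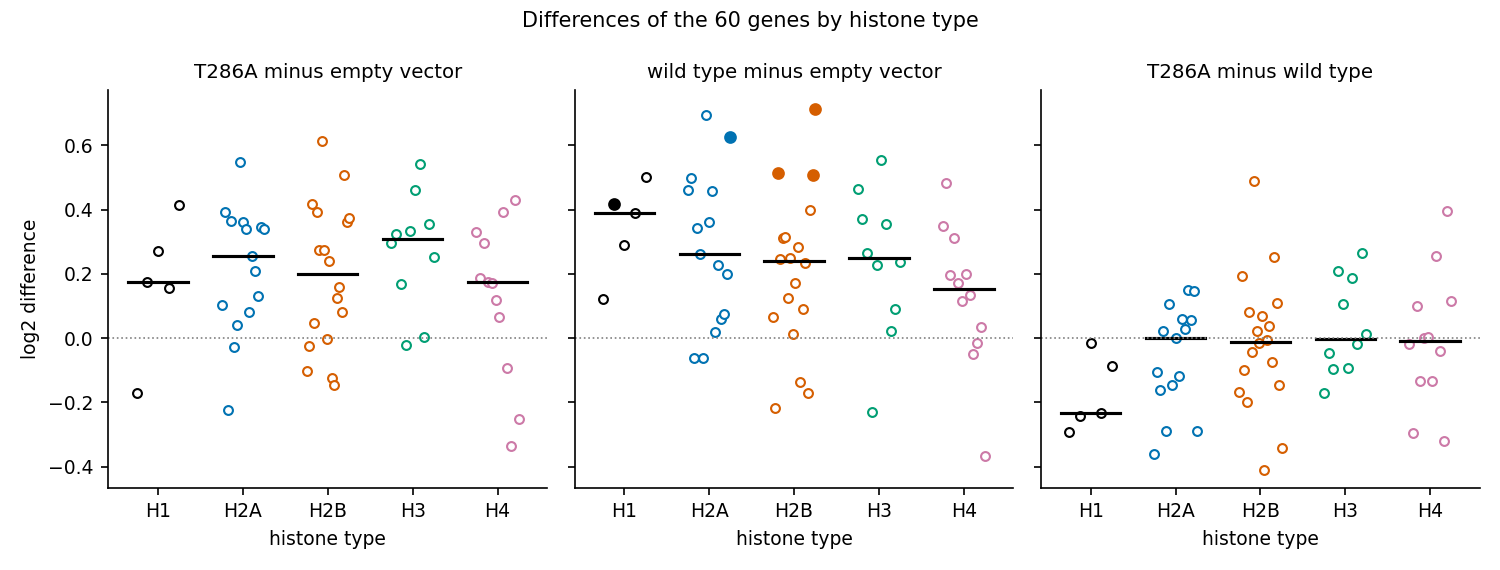
Log2 difference of each of the 60 genes by histone type, for T286A minus empty vector, wild type minus empty vector, and T286A minus wild type. Each point is a gene, filled where called at an adjusted p under 0.05, and bars are medians. The medians against empty vector are all above 0, and all 5 H1 genes lie below 0 for T286A minus wild type.

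By locus, the median difference for both constructs was 0.26 over the 53 HIST1 genes, 0.13 over the 4 HIST2 genes, 0.16 over the 2 HIST3 genes and 0.24 for the HIST4 gene H4C16. All 4 called genes, and H1-2, belong to HIST1. In the order of the RefSeq gene table (GRCh38.p14), HIST1 on chromosome 6 falls into 3 blocks with more than 20 other genes between them. The first, from H2AC1 to H4C8, had 33 of the 60 genes and a median of 0.23. The block from H2BC11 to H2AC12 had 5 and a median of 0.15, and that from H2BC13 to H2BC17 had 15 and a median of 0.33. Called genes were 3, 1 and 0 of these blocks. The last block had the highest median and 9 genes higher at an unadjusted p under 0.05 (5.72% of all genes), but 0 calls. Positive and negative differences stood beside each other within blocks, as at H2BC11 (0.47), H2AC11 (0.44), H2BC12 (0.15), H4C9 (-0.31, or 0.48 in its other probe set) and H2AC12 (-0.14).

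H2A and H2B genes commonly lie head to head and share the stretch between their starts. Among the 60 genes, 13 such pairs had starts within 1000 bases of each other, 11 of them an H2A with an H2B gene. In 11 pairs both genes had a positive difference for both constructs, and in 0 pairs were both negative. Of all 60 genes 49 were positive, and whether paired genes move together was not tested. The 13 pairs hold 25 genes, since H2BC7 enters more than 1 pair. H2BC8 and H2AC8 gave 0.43 and 0.48, and both were called. H2BC11 gave 0.47 and its partner H2AC11 gave 0.44. H2AC11 was at 6.57, 6.48 and 6.45 in T286A cells and 6.70, 6.58 and 6.54 in wild-type cells, against 5.87 and 6.35 in empty vector cells. Its construct arrays all lay above the controls, which differed from each other by about as much as the groups did (limma adjusted p = 0.135). H2BC13 and H2AC13 gave 0.35 each, and H2BC4 and H2AC6 gave 0.11 and 0.10. H2AC7 and H2BC7 gave 0.27 and 0.45, H2AC17 and H2BC17 gave 0.36 and 0.26, and H2AC14 and H2BC14 gave 0.12 and 0.29. Outside HIST1, H2BC21 and H2AC20 gave 0.21 and 0.40, and H2AC25 and H2BC26 gave 0.24 and 0.08. The pairs of an H3 with an H2B gene were H3C7 and H2BC9, with 0.22 and 0.54, and H3C4 and H2BC7, with 0.45 each, where H3C4 has the same start as H2AC7. Signs were opposite in H2AC15 and H2BC15, with -0.01 and 0.37, and in H2AC1 and H2BC1, with 0.28 and -0.02.

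**Figure D5:**
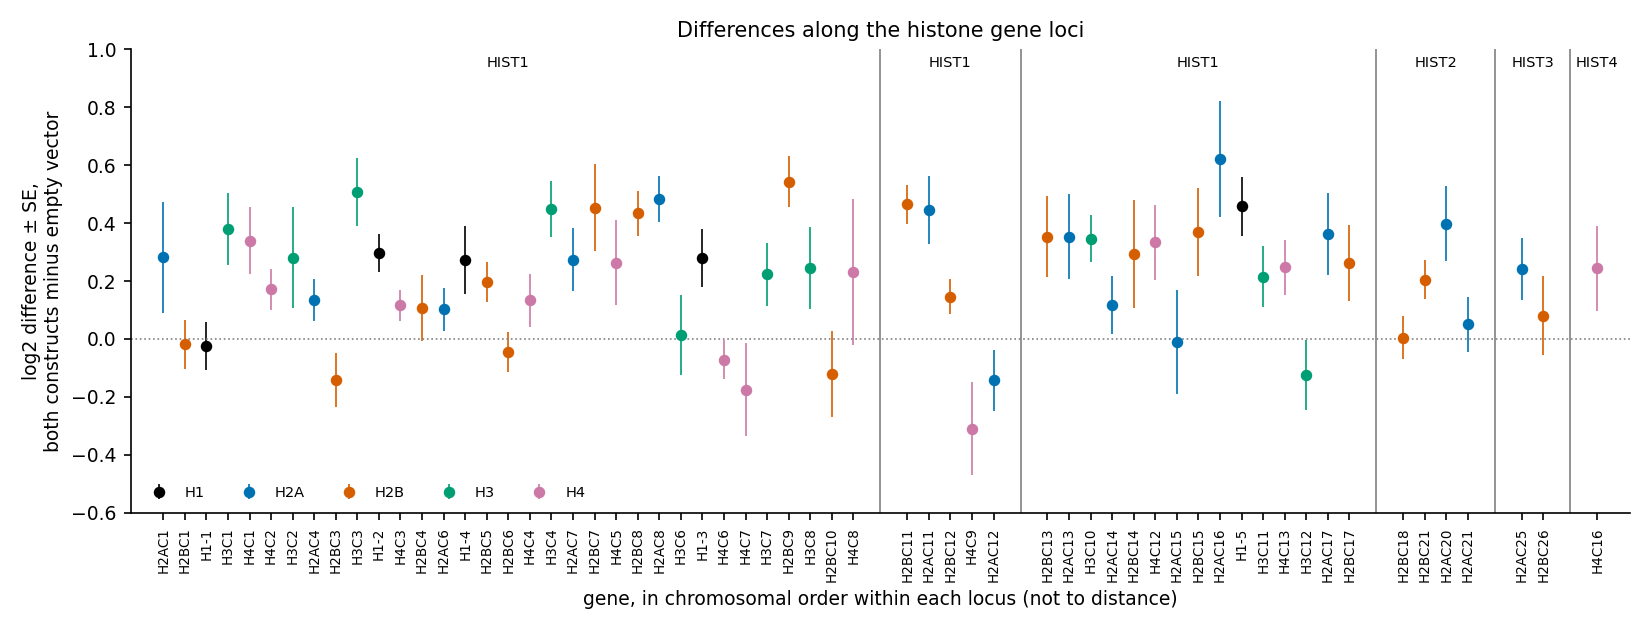
Log2 difference ± SE of both constructs minus empty vector for the 60 genes in chromosomal order, coloured by histone type, with lines between loci and between the 3 HIST1 blocks. Most points lie above 0 in every block, with H2AC16 highest at 0.62 and H4C9 lowest at -0.31 in the probe set used.

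T286A was also set directly against wild-type cyclin D1. In limma 0 of the 60 genes were called, where 0.987% of all genes were, 0.598% higher and 0.389% lower. The difference was positive in 25 genes (50% of all genes), with a median of -0.02 (all genes 0.00021). Without adjustment, 3 genes with p under 0.05 were higher with T286A (H2BC15, H2BC6 and H3C7) and 7 were lower (H1-1, H1-2, H2AC14, H2AC8, H2BC12, H2BC26 and H2BC9), compared with 7.16% and 6.46% of all genes. The groups did not overlap in 5 genes that were higher and 7 that were lower with T286A, against 9.94% and 9.82% of all genes. H2BC9 had the smallest adjusted p, at -0.34 (95% confidence interval -0.54 to -0.14, limma adjusted p = 0.148). H1-2 differed by -0.24 (-0.39 to -0.09, limma adjusted p = 0.165) and H2AC8 by -0.29 (-0.47 to -0.11, limma adjusted p = 0.175). For these 3 genes the 3 T286A arrays all lay below the 3 wild-type arrays. H2BC8 and H2BC11 differed by -0.15 (-0.32 to 0.03) and -0.10 (-0.25 to 0.05). The largest positive differences among genes no dimmer than the overall median were those of H4C8, at 0.40 (-0.18 to 0.98), and H3C4, at 0.19 (-0.03 to 0.41). Without wild-type replicate 2, the array that stood apart, they were 0.092 and 0.074.

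All 5 H1 genes were lower with T286A than with wild type, from -0.29 to -0.02, with a median of -0.23 and 0 calls. The medians of the other types lay between -0.011 and -0.00064. With limma's trended and robust variance model, 4 genes were called lower with T286A: H1-2, H2AC8, H2BC12 and H2BC9. Under the same model 602 of all genes were called in this comparison, in place of 180.

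For the 5 called genes, the genes most like them over the 8 arrays were sought among 70 genes of the histone-related and S-phase lists described next, by Pearson's correlation given as a description. The arrays share the same 3 groups. MMS22L was the nearest to H2BC8 (0.945) and H2BC11 (0.956), H2AZ1 to H2AC8 (0.922) and H2BC9 (0.927), and POU2AF1 to H1-2 (0.919). MMS22L acts with TONSL at replication forks, H2AZ1 encodes an H2A variant, and POU2AF1 is the B-cell coactivator of octamer-binding factors. MMS22L was at 8.61, 8.56 and 8.67 in T286A cells and 8.75, 8.61 and 8.79 in wild-type cells, against 8.11 and 8.34 in empty vector cells. The controls were lowest, and the construct groups overlapped.

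Genes that transcribe and process histone mRNA gave no calls. Of 22 measured, 0 were called in any comparison in limma. For both constructs 3 were higher and 0 lower at an unadjusted p under 0.05, against 5.72% and 6.74% of all genes. The median of the 22 was 0.03. SLBP, which binds the stem-loop, was at 11.48, 11.36 and 11.41 in T286A cells and 11.35, 11.36 and 11.44 in wild-type cells, against 11.19 and 11.12 in empty vector cells. It was higher on all 6 construct arrays, by 0.25 ± 0.063 (limma adjusted p = 0.122). NPAT differed by 0.21 ± 0.095 (limma adjusted p = 0.407). CASP8AP2, a scaffold of histone locus bodies also called FLASH, differed by 0.54 ± 0.16 (limma adjusted p = 0.183). LSM11, of the U7 particle that cuts the pre-mRNA, differed by -0.38 between T286A and wild type (limma adjusted p = 0.0761).

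Replication-independent histone variants, whose mRNAs are made outside S phase as well, also gave 0 calls of 11 measured in each comparison. For both constructs 4 were higher and 0 lower at an unadjusted p under 0.05, against 5.72% and 6.74% of all genes. The median of the 11 was 0.10. H2AX, whose protein is phosphorylated at DNA breaks, was at 12.99, 12.94 and 12.99 in T286A cells and 12.86, 12.90 and 13.01 in wild-type cells, against 12.64 and 12.65 in empty vector cells. All construct arrays were higher, by 0.31 ± 0.063 (limma adjusted p = 0.0647). H2AZ2 differed by 0.23 ± 0.054 (limma adjusted p = 0.0971). CENPA, the centromeric H3 variant, differed by 0.35 ± 0.067 with T286A (limma adjusted p = 0.0697) and by 0.12 ± 0.067 with wild type (limma adjusted p = 0.488).

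Of 21 histone chaperones and supply genes, 3 rose for both constructs and 0 fell, with a median of 0.14. CHAF1A, a subunit of the CAF-1 complex that loads new H3-H4, rose by 0.48 ± 0.077 (limma adjusted p = 0.0299), MMS22L by 0.44 ± 0.082 (0.0477) and ASF1B, an H3-H4 chaperone, by 0.40 ± 0.060 (0.0237). With T286A 2 rose (CHAF1A by 0.54 and ASF1B by 0.50), with wild type 1 rose (MMS22L by 0.49), and between T286A and wild type 0 were called. The 3 calls for both constructs became 0 without wild-type replicate 1, or without T286A replicate 1, 2 or 3, and 1 without wild-type replicate 3. Over all genes these fits called 120, then 88, 78 and 65, and then 154, in place of 255. Leaving out an empty vector array leaves 1 control, so its calls are not counted here.

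Replication fork and licensing genes were higher in the same arrays: 12 of 16 rose for both constructs and 0 fell, 8 rose with T286A and 7 with wild type. The list's median was 0.39 for both constructs, 0.43 for T286A and 0.35 for wild type, and all 16 were positive in each. TK1, which supplies thymidine nucleotides, rose by 0.73 ± 0.086, CDT1, a licensing factor, by 0.61 ± 0.065 and MCM6, of the replicative helicase, by 0.54 ± 0.056 for both constructs. Between T286A and wild type all 16 differences were positive and 0 were called. Of the 60 histone genes, 25 were positive and 35 negative there, with all 5 H1 genes among the negative. The part of the fork and licensing genes in the histone values was not tested. For both constructs, 4 of the 16 fork and licensing genes were called when any 1 T286A replicate was left out. The count was 6 without wild-type replicate 1 and 8 without wild-type replicate 2 or 3. Over all genes, 65 to 88 were called without a T286A replicate and 120 to 199 without a wild-type replicate, in place of 255. Calls of fits with 1 empty vector array are not counted here.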

How the data were processed

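The deposited values are log2 expression values of 8 arrays, made by the authors by RMA (background correction, equal distributions over arrays, 1 value per probe set); the submitters' processing notes name R 3.5.0. The values carry no detection call, and scanner files and scan dates were not used here, so batches by date were not tested. The table held 48864 probe sets, of which 10 controls were left out; 45220 were annotated to 1 gene, 1325 to several and 2309 to none, per the array platform's annotation. The number of arrays limits the precision. Groups and replicate numbers come from the sample titles.

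Each of 18231 genes was represented by its brightest probe set. All 8 arrays were fitted together in limma 3.58.1 (R 4.3.3) with a mean per group (5 residual and 3.27 prior degrees of freedom) and 4 contrasts, two-sided. Calls needed an adjusted p under 0.05 (Benjamini-Hochberg, all 18231 genes), and limma gave every p printed. The fit was also run on simulated data with independent noise and known changes. Such data hold no batch and no shared culture, so they say nothing on either. The histone genes, the 8 gene lists and the motifs were chosen with earlier results of these data known, so no list was tested as a set. Named were CCND1, all called histone genes, the 3 brightest of each type, the smallest p and largest rises and falls among genes at or above the median, and from each other list up to 3 called genes or, with none called, up to 2 with the smallest p. The text also names genes outside that rule, chosen after their values were seen, among them H1-1, H1-5, H2AC16, H4C9 and the partners of head-to-head pairs. Alternatives were another probe set rule, a filter on dim genes, array centring, a trended and robust variance model, array weights, only the groups compared, the replicate number as a block and leaving out each array. Promoters and gene order are RefSeq's (GRCh38.p14).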

Additional observations from a re-analysis of the deposited data

Results flagged for a closer look

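Of the 8 histone probe sets annotated to several genes, which lie outside the 60 genes above, 2 probe sets shared by H2AC18 and H2AC19, near-identical H2A genes of the HIST2 locus, were called in limma over all 46545 annotated probe sets. The first, whose probes are shared by several transcripts, was higher by 0.46 ± 0.072 (log2 ± SE, limma adjusted p = 0.0385) for both constructs against empty vector and by 0.57 ± 0.080 (limma adjusted p = 0.0195) for wild type against empty vector. The other, some of whose probes may bind further transcripts, was higher by 0.45 ± 0.076 (limma adjusted p = 0.0386) for wild type against empty vector. T286A against empty vector gave 0.35 and 0.23 in these probe sets and was not called. Which of the genes the signal comes from cannot be told apart.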

How the results depend on the processing

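With 2 empty vector arrays, the calls are few and change with the fit, while the median difference of the 60 histone genes against empty vector stayed positive in every alternative. Taking the mean of all probe sets of a gene called 7 histone genes for both constructs and 4 for T286A, and among the other lists 1 processing gene and 1 variant for both constructs and for T286A, and 3 chaperones and 11 fork genes for wild type. That mean called 353 of all genes for both constructs and 190 for T286A, in place of 255 and 97. Testing each probe set by itself called 1 chaperone and 7 fork genes for both constructs, 3 fork genes for wild type, and 1 chaperone and 4 fork genes for T286A. Keeping only genes no dimmer than the overall median called 3 histone genes for T286A, 8 for wild type and 8 for both constructs; the medians were 0.31, 0.36 and 0.31, and -0.080 for T286A against wild type. Under that filter 15 fork genes and 4 chaperones were called for T286A and for wild type, 1 processing gene and 3 variants for both constructs and for T286A, 1 variant for wild type, and 1 of each list for T286A against wild type. Fewer genes enter the adjustment there, and of these 9116 genes 527 were called for T286A, 629 for wild type and 624 for both constructs. Centring arrays on their median gave histone medians of 0.30 for wild type and -0.083 for T286A against wild type, with 3 chaperones called for wild type, 1 chaperone and 5 fork genes for T286A and 1 processing gene for T286A against wild type; it moved the median of all genes by at most 0.067. Centring on housekeeping genes called 1 chaperone and 5 fork genes for T286A. The trended and robust variance model called 6 histone genes for T286A, 9 for wild type, 9 for both constructs and 4 for T286A against wild type; for both constructs it called 3 processing genes, 5 variants and 7 chaperones, for T286A 2, 4 and 5 with 16 fork genes, for wild type 2, 3 and 4 with 16 fork genes, and 1 variant for T286A against wild type. Calls rose over all genes too under that model, to 626 for T286A, 747 for wild type and 738 for both constructs. The main fit called 97, 317 and 255. Array weights called 2 histone genes, 2 variants and 13 fork genes for T286A and 1 variant for both constructs. With these weights 317 of all genes were called for T286A and 436 for both constructs. Fits of only the groups compared called 1 histone gene for wild type, and 0 chaperones and 0 fork genes for either construct. There 68 of all genes were called for wild type and 4 for T286A. At an adjusted p under 0.1 the histone counts were 2 for T286A and 9 for both constructs, and all genes were not counted at that threshold. At an unadjusted p under 0.05 they were 23 for T286A, 21 for wild type, 28 for both constructs and 10 for T286A against wild type. Of all genes, 5.95% were then higher and 6.15% lower for T286A, and 6.08% and 7.42% for wild type. The shares were 5.72% and 6.74% for both constructs, and 7.16% and 6.46% for T286A against wild type. Probe sets designed to 1 gene (chosen after seeing the data) called 3 for wild type, where 189 of 16763 genes were called. The cause of these changes was not tested.

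With the replicate number as a block, 0 histone genes, 0 chaperones and 0 fork genes were called against empty vector. Of all genes, 3 were called there for T286A, 71 for wild type and 7 for both constructs. The histone median was 0.20 for T286A, 0.22 for wild type and 0.21 for both constructs. The labels state no pairing of replicates, so the numbers were not taken to pair the samples. Deviations of same-numbered T286A and wild-type arrays from their group means correlated at 0.0409, 0.119 and 0.0034. Those of differently numbered arrays correlated at -0.110 to 0.0962. These values cannot exclude a pairing, and the empty vector arrays were not part of them. Leaving out 1 array at a time called 0 to 1 histone genes for T286A, 0 to 4 for wild type and 0 to 3 for both constructs, with histone medians of 0.19 to 0.23, 0.20 to 0.26 and 0.21 to 0.25, and -0.053 to -0.018 for T286A against wild type. Fork genes called were 0 to 7 for T286A, 0 to 4 for wild type and 0 to 8 for both constructs, chaperones 0 to 1, 0 to 1 and 0 to 3, and processing genes 0 to 1 for both constructs. Leaving an empty vector array out leaves 1 control, assumed to vary like the other groups, and these ranges include such fits. Fits without a construct array called 3 to 87 of all genes for T286A, 153 to 196 for wild type and 65 to 199 for both constructs. The main fit called 97, 317 and 255. T286A against wild type changed sign for CCND1 without T286A replicate 2 (0.037; range -0.16 to 0.037), for H2BC11 with the mean of all probe sets (0.029) and with probe sets designed to 1 gene (0.086), and for H4C12 with those probe sets (0.067). Of the 60 genes, 36 lie below the overall median level, and the values carry no detection call.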
